A study of Mus musculus with 12 samples.

Results

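Genes for the protein subunits of the mitochondrial ribosome were compared between infarcted and sham-operated mouse hearts. The genes were taken from the array by symbol. A gene counted when the platform annotation gave a row of the table exactly 1 symbol and that symbol was Mrpl (large subunit) or Mrps (small subunit) followed by a number, with or without a final letter. This gave 74 genes of 20352 on the array, 46 of the large and 28 of the small subunit, read from 435 of the 241576 rows. The samples came from C57BL/6J mice 12 weeks of age, taken 2 weeks after surgery. The infarcted group held 6 heart samples from the border zone, the tissue beside a myocardial infarct, and the sham group held 6 samples from the matching site after surgery with a sham infarct. No other treatment or genetic change is given for either group. Each RNA was measured on a one-colour array, and all values are log2 signals.

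Mitochondria carry their own ribosome, which is separate from the cytosolic one and related to that of bacteria. It translates the few messenger RNAs made from mitochondrial DNA, all of which encode core subunits of the respiratory chain and ATP synthase. Its ribosomal RNAs come from mitochondrial DNA, but all of its proteins are encoded in the nucleus, made in the cytosol and imported. Some of these proteins have counterparts in bacteria, and others exist only in mitochondrial ribosomes. Cardiac muscle cells are packed with mitochondria and depend on their respiration, and inherited defects of several mitochondrial ribosomal proteins cause cardiomyopathy in humans.

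Array medians lay between 6.997 and 7.026 in sham and between 7.045 and 7.058 in infarcted samples. The tissue carried the transcripts of heart muscle at high signal, with a mean over 12 cardiomyocyte markers between 13.08 and 13.22 on every array. Fibroblast markers were higher in infarcted tissue (9 of 10 passed the test), as were macrophage and monocyte markers (8 of 10). Atrial and adipocyte markers were uneven among infarcted arrays. Relative to the sham mean, the median of 6 atrial markers reached 1.953 on infarcted replicate 4 and 1.356 on replicate 5. The median of 6 adipocyte markers reached 2.542 on infarcted replicate 5. The precision of every value is limited by the 6 arrays per group.

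Mitochondrial ribosomal protein genes were lower in infarcted tissue. Of the 74 genes, 32 fell and none rose (limma, adjusted p under 0.05 over all genes), against 10.2% of all genes tested that fell and 10.1% that rose (20.3% in either direction). At an unadjusted p under 0.05, 46 were lower and none higher, against 17.5% of all genes that were lower. The difference was below 0 in 72 of the 74, a sign seen in 58% of all genes. Falls were modest. Among the 32 genes they ran from 0.23 to 0.57 on the log2 scale or from 1.17-fold to 1.48-fold. The median difference over all 74 was -0.246, beside -0.039 over all genes. In 16 of the 74 genes the 6 infarcted arrays all lay below the 6 sham arrays, against 5.29% of all genes. In bulk tissue such as this, fewer cells of a type and less RNA per cell cannot be told apart.

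The large and small subunits moved by similar amounts. In the large subunit 20 of 46 genes fell and none rose, with a median difference of -0.229. In the small subunit 12 of 28 fell and none rose, with a median of -0.256. Without infarcted replicate 5, or without infarcted replicate 6, the large subunit count was 13, against 8.18% and 8.39% of all genes in those fits. With replicates 4 and 5 both left out, the 2 arrays with the most atrial and adipocyte signal, 11 large and 7 small subunit genes fell, against 7.15% of all genes in that fit, and the medians were -0.214 and -0.267. That fit also has fewer arrays, and it keeps infarcted replicate 6, with an atrial marker median of 0.884 (sham arrays up to 0.244). It therefore cannot show the part of atrial and fat tissue in the result, which was not tested.

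**Figure D1:**
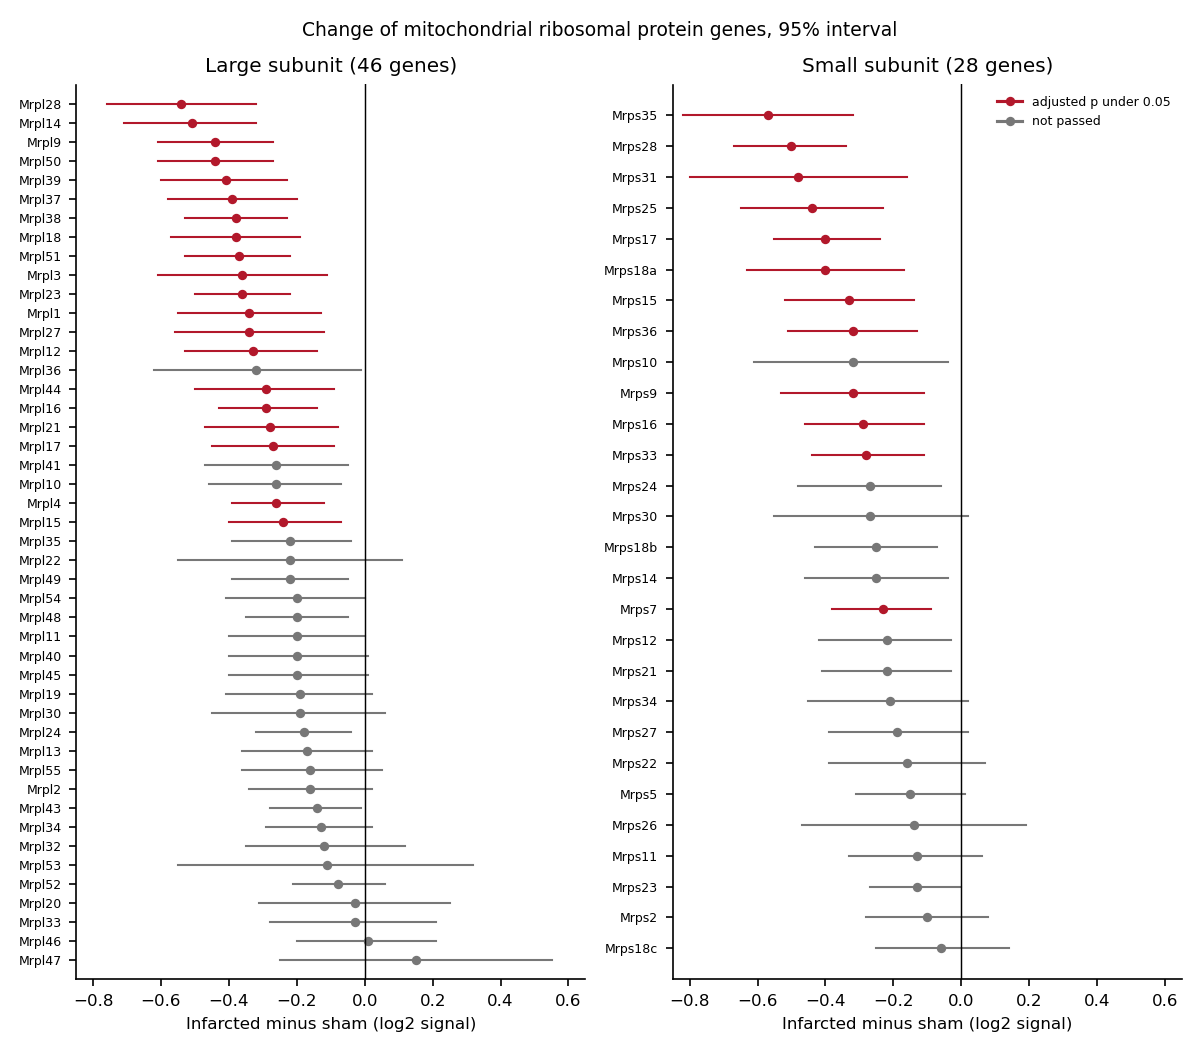
The change of each gene, infarcted minus sham on the log2 scale, is plotted with its 95% interval for the 46 large subunit genes (left) and the 28 small subunit genes (right), in order of size. Genes with an adjusted p under 0.05 are red (20 and 12), the others are grey, and only Mrpl46 and Mrpl47 lie above 0.

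The genes with the clearest falls in the large subunit came from several regions of the particle. Mrpl14, a protein of the face that meets the small subunit, had sham signals from 9.32 to 9.54 (median 9.40) and infarcted signals from 8.71 to 9.23 (median 8.91). Every infarcted array lay below every sham array, and the gene fell by 0.51 (SE 0.09, 1.43-fold, adjusted p = 0.00114 in limma). Mrpl50, which has no bacterial counterpart, ran from 9.84 to 10.07 (median 10.03) in sham and from 9.34 to 9.76 (median 9.58) in infarcted tissue. Its groups did not overlap either, and it fell by 0.44 (SE 0.08, adjusted p = 0.00117).

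Mrpl9, the relative of bacterial ribosomal protein L9, had 8 rows on the array. Its signals ran from 8.73 to 8.97 (median 8.92) in sham and from 8.23 to 8.69 (median 8.43) in infarcted tissue, without overlap, a fall of 0.44 (SE 0.08, adjusted p = 0.00123 in limma). All 8 rows were lower at an unadjusted p under 0.05, with differences from -0.52 to -0.24. Mrpl23, whose bacterial relative sits at the rim of the tunnel where the new protein leaves, was a bright gene. It ran from 10.73 to 10.89 (median 10.80) in sham and from 10.32 to 10.58 (median 10.41) in infarcted tissue and fell by 0.36 (SE 0.07, adjusted p = 0.00128). The groups were fully apart, and each of its 6 rows passed the test on rows. Mrpl38, a mitochondrial protein of the central protuberance at the top of the large subunit, fell by 0.38 (SE 0.07, adjusted p = 0.00154). It ran from 9.22 to 9.47 (median 9.33) in sham and from 8.83 to 9.13 (median 8.97) in infarcted tissue, again without overlap.

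The stalk of the large subunit recruits translation factors. Mrpl12, a stalk protein that in human cells also binds the mitochondrial RNA polymerase, ran from 9.64 to 9.89 (median 9.76) in sham and from 9.22 to 9.77 (median 9.35) in infarcted tissue. Infarcted replicate 2 lay among the sham arrays and the other 5 below them. Mrpl12 fell by 0.33 (SE 0.09, adjusted p = 0.0193 in limma), a call that ended with infarcted replicates 4 and 5 left out (adjusted p = 0.108). Mrpl10, which holds the stalk to the ribosome, differed by -0.26 and missed the threshold (adjusted p = 0.054 in limma). It passed once each array was centred (adjusted p = 0.0253), and with the mean over rows it was -0.13 (adjusted p = 0.122). It ran from 9.61 to 9.99 (median 9.75) in sham and from 9.32 to 9.65 (median 9.56) in infarcted tissue, with a small overlap. Mrpl11, the other stalk gene, differed by -0.20 (adjusted p = 0.165).

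The largest fall in the large subunit belonged to Mrpl28, the relative of bacterial L28, which is named for that size. It ran from 8.85 to 9.20 (median 9.0) in sham and from 8.24 to 8.74 (median 8.50) in infarcted tissue. The groups did not overlap, and Mrpl28 fell by 0.54 (SE 0.10, 1.45-fold, adjusted p = 0.00192 in limma).

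Defects of the human counterparts of Mrpl3 and Mrpl44 cause cardiomyopathy in infancy. Mrpl3 ran from 10.01 to 10.37 (median 10.17) in sham and from 9.39 to 10.08 (median 9.85) in infarcted tissue. It fell by 0.36 (SE 0.12, adjusted p = 0.0397 in limma), but the call ended in 7 of the 12 fits with 1 array left out (adjusted p up to 0.0874). Mrpl44 ran from 7.53 to 7.88 (median 7.81) in sham and from 7.28 to 7.79 (median 7.46) in infarcted tissue. Its fall of 0.29 (SE 0.10, adjusted p = 0.0446) was lost in 9 of those 12 fits (adjusted p up to 0.0966). With infarcted replicates 4 and 5 left out neither passed (adjusted p = 0.0595 for Mrpl3 and 0.216 for Mrpl44). Both genes were lower in infarcted tissue by direction in all 12 fits, with overlap between the groups.

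In the small subunit the smallest p belonged to Mrps28, classed in the common naming system as the counterpart of bacterial ribosomal protein S1. It ran from 7.92 to 8.23 (median 8.06) in sham and from 7.45 to 7.78 (median 7.53) in infarcted tissue. The groups did not overlap, and Mrps28 fell by 0.50 (SE 0.08, 1.42-fold, adjusted p = 0.000316 in limma). Mrps35, a mitochondrial protein of the small subunit head, had the largest fall of all 74 genes, 0.57 (SE 0.12, 1.48-fold, adjusted p = 0.00333). Its sham signals ran from 8.94 to 9.17 (median 8.99) and its infarcted signals from 8.20 to 8.95 (median 8.35). A single infarcted array, replicate 2, reached the sham range.

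Mrps25, a mitochondrial protein of the small subunit body, ran from 7.94 to 8.32 (median 8.19) in sham and from 7.44 to 7.92 (median 7.76) in infarcted tissue. The groups met without overlapping, and the gene fell by 0.44 (SE 0.10, adjusted p = 0.00542 in limma). The fall was smaller with the mean over rows (-0.23, adjusted p = 0.0196) and with dim rows left out (-0.25, adjusted p = 0.0197). Mrps17, the relative of bacterial S17, ran from 7.74 to 8.10 (median 7.81) in sham and from 7.35 to 7.57 (median 7.46) in infarcted tissue, without overlap. It fell by 0.40 (SE 0.07, adjusted p = 0.00136). Its 5 rows disagreed, from -0.52 to 0.35, with the positive value at a row of dim signal (3.45). With the mean over rows in place of the median the difference was -0.19 and did not pass (adjusted p = 0.0828), and with dim rows left out it was -0.26 (adjusted p = 0.00504).

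Mrps18 is a family of 3 related genes, of which the products of Mrps18b and Mrps18c belong to the small subunit, while that of Mrps18a sits in the large subunit in spite of its name. Mrps18a ran from 9.17 to 9.56 (median 9.30) in sham and from 8.62 to 9.27 (median 8.89) in infarcted tissue and fell by 0.40 (SE 0.11, adjusted p = 0.0161 in limma), a call that ended with infarcted replicates 4 and 5 left out (adjusted p = 0.0676). A single infarcted array overlapped the sham range. Mrps18b ran from 8.65 to 8.99 (median 8.85) in sham and from 8.29 to 8.76 (median 8.59) in infarcted tissue, a difference of -0.25 that missed the threshold (adjusted p = 0.0532). It passed with arrays centred (adjusted p = 0.0246), and with the mean over rows it was -0.15 (adjusted p = 0.153). Mrps18c ran from 6.89 to 7.20 (median 7.07) in sham and from 6.66 to 7.13 (median 7.03) in infarcted tissue. Those groups overlapped almost entirely. Its difference was -0.06 (95% interval -0.25 to 0.14, adjusted p = 0.719). With the mean over rows it was -0.20 (adjusted p = 0.0962), so the order of Mrps18b and Mrps18c turned round. The difference between the 3 genes was not itself tested, and Mrps18c was also the dimmest of them. Its brightest row, at 9.93, differed by -0.26 (adjusted p = 0.0416 over all rows).

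**Figure D2:**
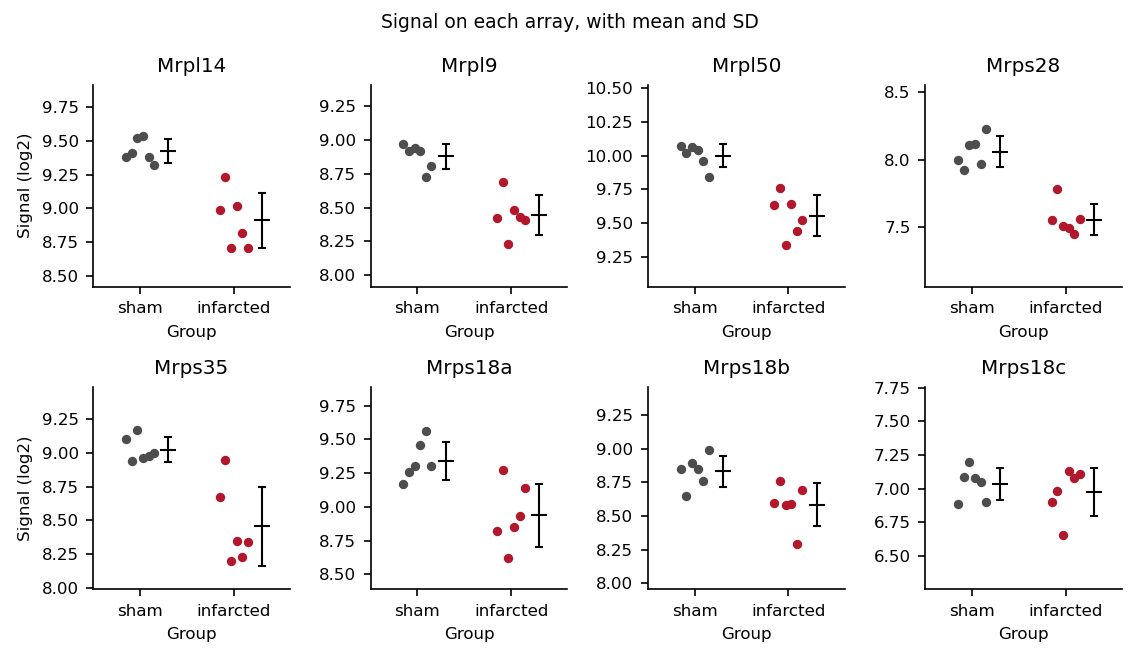
Signals (log2) on the 6 sham and 6 infarcted arrays are plotted for 8 genes, with a short line for the group mean and a bar for its SD, and each panel spans the same height of 1.5 log2 units. The groups do not overlap in Mrpl14, Mrpl9, Mrpl50 and Mrps28, and they overlap almost entirely in Mrps18c.

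Mrps30 is another gene with a small subunit name whose product was found in the large subunit. It was the dimmest small subunit gene, from 6.55 to 6.88 (median 6.60) in sham and from 6.00 to 6.83 (median 6.48) in infarcted tissue. It differed by -0.27 (adjusted p = 0.189 in limma), and with the mean over rows it passed (-0.33, adjusted p = 0.00201). Counting Mrps18a and Mrps30 with the large subunit gave 21 of 48 genes lower there and 11 of 26 in the small subunit. Mrps36 fell by 0.32 (adjusted p = 0.0184, and 0.0827 with infarcted replicates 4 and 5 left out), but its product has since been described as a subunit of the 2-oxoglutarate dehydrogenase complex rather than of the ribosome.

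The brightest gene of each subunit did not pass. Mrps21, the relative of bacterial S21, ran from 11.76 to 12.00 (median 11.87) in sham and from 11.42 to 11.88 (median 11.65) in infarcted tissue, a difference of -0.22 (adjusted p = 0.0956 in limma, and 0.0408 with arrays centred). Mrpl34, the relative of bacterial L34, ran from 11.05 to 11.32 (median 11.16) in sham and from 10.89 to 11.21 (median 11.01) in infarcted tissue, a difference of -0.13 (adjusted p = 0.236). Mrpl33, the dimmest large subunit gene, differed by -0.03 (95% interval -0.28 to 0.21, adjusted p = 0.883). It ran from 6.08 to 6.78 (median 6.52) in sham and from 6.22 to 6.70 (median 6.42) in infarcted tissue, so its infarcted arrays lay inside the sham range.

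Falls were seen in most regions of the particle for which genes could be grouped by the known position of the protein or of its bacterial relative. In the head of the small subunit 5 of 7 genes fell (Mrps7, Mrps9, Mrps31, Mrps33 and Mrps35), with a median of -0.318. In its body 3 of 6 fell, with a median of -0.249. None of the 4 genes grouped as platform passed, Mrps11, Mrps18b, Mrps18c and Mrps21 (median -0.178). Nor did any of the 3 genes of the decoding centre and messenger RNA path, Mrps5, Mrps12 and Mrps24 (median -0.224). Mrps15 was placed in none of these small subunit groups and fell (-0.33, adjusted p = 0.0175 in limma). In the large subunit 3 of 6 genes of the central protuberance fell (Mrpl18, Mrpl27 and Mrpl38), 2 of 7 at the rim of the exit tunnel (Mrpl17 and Mrpl23) and 1 of 3 in the stalk. Over all genes 10.2% fell, and in groups of 3 or 4 genes the counts cannot be told from that share. These groups are small and the differences between them were not tested. With 1 array left out, Mrps9 passed in 5 of the 12 fits, Mrps31 in 4, Mrpl27 in 5 and Mrpl17 in 3. Mrps33, Mrps35, Mrpl18, Mrpl23 and Mrpl38 passed in all 12 and Mrps7 in 11. Genes with a bacterial counterpart and genes found only in mitochondria gave similar shares, 20 of 45 and 11 of 28, with medians of -0.246 and -0.234.

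More of the brighter genes passed the test. Of the 25 dimmest genes 6 fell, of the 25 in the middle 12, and of the 24 brightest 14, by the mean signal over all arrays. The median differences of these sets, in the same order, were -0.223, -0.232 and -0.304. Mean signals of the 74 genes lay between 6.46 and 11.77, and 15.7% of the 10386 genes on the array within that range fell.

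**Figure D3:**
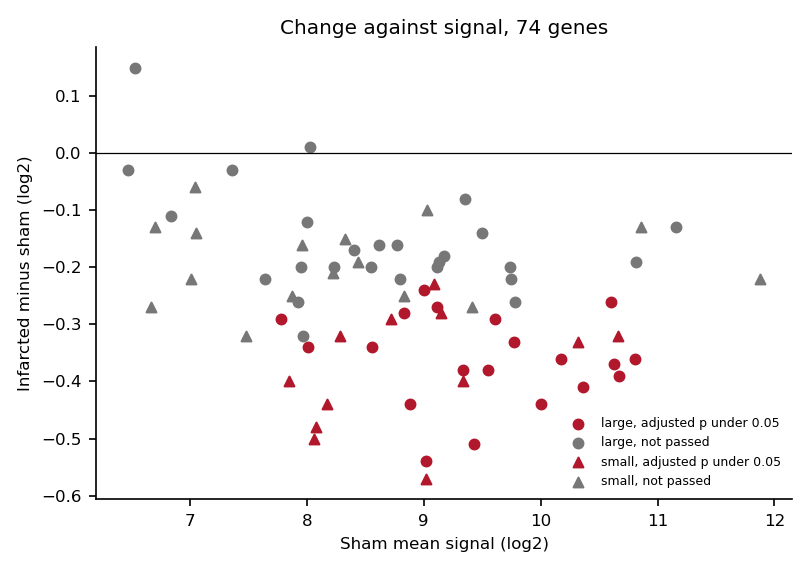
Each of the 74 genes is plotted by its sham mean signal (log2) and its change, infarcted minus sham (log2), with circles for the large and triangles for the small subunit and red for an adjusted p under 0.05. Mrpl47 and Mrpl46, the only genes above 0, lie in the dimmer part of the plot, and all brighter genes lie below 0.

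Single rows of the table, most of which cover part of a gene, were lower in a smaller share than whole genes, but above the share of all rows. Of the 435 rows, 403 had a difference below 0 (52.2% of all rows), 108 were lower at an adjusted p under 0.05 and none higher (4.3% of all rows were lower). By subunit 77 of 269 and 31 of 166 rows were lower. Mrpl47, which stood highest of the 74 genes at 0.15 (adjusted p = 0.637 in limma) and is named for that value, showed how dim rows can move a gene. It had 13 rows, of which 6 were dimmer than the 30th percentile of the array (5.581). Its 4 rows with an unadjusted p under 0.05 were all lower. With dim rows left out, Mrpl47 was among the genes that fell (-0.38, adjusted p = 0.00562). The other gene above 0, Mrpl46 (0.01, adjusted p = 0.97), differed by -0.08 in that setting and did not pass.

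In most of these genes the infarcted samples differed among themselves more than the sham samples did. The SD among infarcted arrays exceeded that among sham arrays in 53 of the 74 genes, against 51.7% of all genes, with median SDs of 0.18 and 0.12. On infarcted replicates 3, 4, 5 and 6, between 69 and 71 of the 74 genes lay below the sham mean, and on replicate 1, 66. On infarcted replicate 2 the number was 48, against 19 to 46 on the sham arrays. The median over the 74 genes, relative to the sham mean, was -0.394 on infarcted replicate 5, -0.383 on replicate 3, -0.272 on replicate 6, -0.217 on replicate 4, -0.215 on replicate 1 and -0.068 on replicate 2. The sham arrays lay between -0.030 and 0.052, so all 6 infarcted arrays were below them, replicate 2 by little. Replicate 2 was the highest infarcted array in 48 of the 74 genes, against 21.1% of all genes and 29.2% of all genes that fell. Without it 26 large and 16 small subunit genes fell, against 10.4% of all genes.

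**Figure D4:**
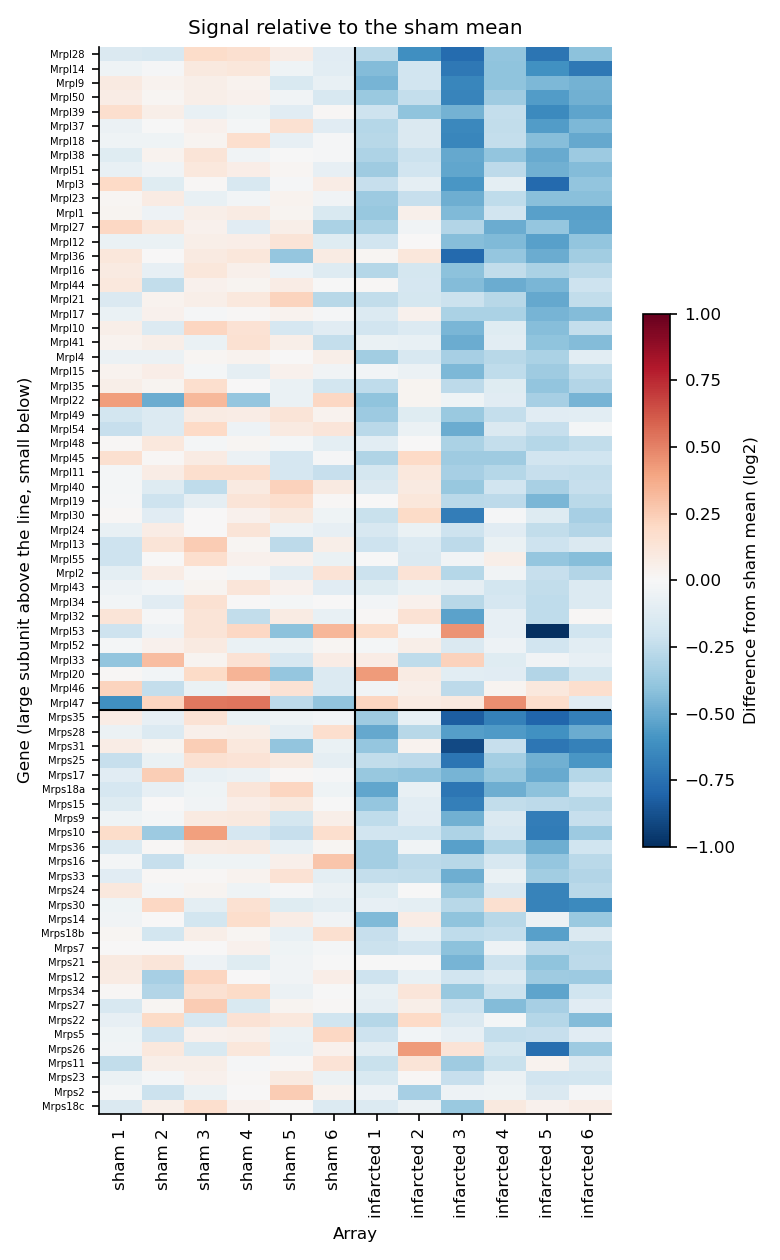
The signal of each gene on each array is shown as its difference from the sham mean (log2; blue lower, red higher), with sham arrays left of the vertical line and large subunit genes above the horizontal line. Most genes are blue on infarcted replicates 3 to 6, and infarcted replicate 2 is the palest infarcted column.

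Both subunits shifted by similar amounts on each array. The large subunit median minus the small subunit median lay between -0.044 and 0.022 on sham arrays and between -0.023 and 0.023 on infarcted arrays, so the 2 ranges overlapped. The replicates that were lowest for one subunit, 5 and 3, were also lowest for the other. Replicate 3 or 5 was the lowest infarcted array in 58 of the 74 genes, passed or not, and in 64.4% of all genes that fell. These sets are unlike, and the share over all genes was not counted, so the pattern cannot be called particular to the 74.

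Other genes of mitochondrial protein synthesis were lower too. Of 6 ribosomal proteins that the platform lists under other symbols (Mrpl57 and Mrpl58 by their current names among them), 3 fell. They were Dap3 (-0.47, adjusted p = 0.00265 in limma), a protein of the small subunit head, Ptcd3 (-0.49, adjusted p = 0.00374), which binds messenger RNA at the small subunit, and Gadd45gip1 (-0.31, adjusted p = 0.0369) of the large subunit. Of 15 translation factors and helpers 11 fell and none rose. They included the elongation factors Tufm (-0.40, adjusted p = 0.000616) and Gfm1 (-0.44, adjusted p = 0.00126) and Lrpprc (-0.48, adjusted p = 0.00115), which stabilises mitochondrial messenger RNA. Of 19 mitochondrial aminoacyl-tRNA synthetases and related enzymes, which load transfer RNA with amino acids, 12 fell and none rose, led by Iars2 (-0.41, adjusted p = 0.000442), Sars2 (-0.42, adjusted p = 0.00273) and Yars2 (-0.38, adjusted p = 0.00445). Median differences of these 3 lists were -0.289, -0.319 and -0.337.

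Among 25 genes for the assembly of the mitochondrial ribosome and its RNA 12 fell and none rose, with a median of -0.311. Rbfa (-0.39, adjusted p = 0.00108 in limma) and the ribosomal RNA methyltransferase Tfb1m (-0.36, adjusted p = 0.00353) act on the small subunit. Malsu1 (-0.34, adjusted p = 0.0079) binds Mrpl14 and keeps the subunits apart. Of 10 genes for the upkeep and transcription of mitochondrial DNA 4 fell, including the transcription factor Tfb2m (-0.34, adjusted p = 0.00126), the nuclease Mgme1 (-0.52, adjusted p = 0.00357) and the helicase Twnk (-0.45, adjusted p = 0.00614). All these lists were chosen with results of these data known, and their shares stand beside the 10.2% of all genes that fell.

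Those transcripts translated by this ribosome that could be compared gave no call. They were ATP6, COX1, COX3, ND1, ND2, ND4L and ND6, and the other messenger RNAs of mitochondrial DNA were not among the genes compared. None of these 7 passed in either direction (1 was lower at an unadjusted p under 0.05), with a median difference of -0.037. A total of 6 of them had sham means between 13.13 and 14.09, close to the highest value in the table (14.37), where a change may be compressed. ND6 was the exception, at 6.04 ± 0.24 in sham and 5.76 ± 0.19 in infarcted tissue (SD, n = 6 arrays per group, adjusted p = 0.117 in limma).

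Respiratory complex I, most of whose subunits are also made in the cytosol and imported, was lower as well. Of its 34 nuclear-encoded subunits 28 fell and none rose, against 10.2% of all genes that fell, and the median was -0.312. In 25 of the 34, passed or not, all infarcted arrays lay below all sham arrays, against 5.29% of all genes. Infarcted replicates 3 and 5 were again the lowest arrays (-0.439 and -0.426) and replicate 2 the highest (-0.199). The ribosomal median minus the complex I median was 0.131 on infarcted replicate 2 and between 0.018 and 0.056 on the other infarcted arrays, against -0.050 to 0.037 on sham arrays. Complex I genes were brighter, with a median sham signal of 11.44 against 8.83, and the difference in the share of genes called was not tested.

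Cytosolic ribosomal proteins showed no such shift. Of 70 genes 2 fell and 7 rose, against 10.2% of all genes that fell and 10.1% that rose. The share that rose was thus near that of all genes. The median difference was 0.006, and the array medians ran from -0.043 to 0.029 in sham and from -0.004 to 0.058 in infarcted tissue. The muscle form Rpl3l fell by 1.18 (adjusted p = 2.99e-05 in limma), and Rpl3, its general counterpart, rose by 0.67 (adjusted p = 0.000342). Rpl12 rose by 0.70 (adjusted p = 0.000138). Near-identical copies make the values of many cytosolic ribosomal protein genes uncertain.

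Cardiomyocyte markers moved by less than the mitochondrial ribosomal genes. None of 12 passed in limma (4 were lower at an unadjusted p under 0.05), with a median of -0.069. Their array medians nonetheless did not overlap, from -0.018 to 0.022 in sham and from -0.097 to -0.053 in infarcted tissue. The mean log2 signal over the markers ran from 13.18 to 13.22 in sham and from 13.08 to 13.16 in infarcted tissue, close to the top of the range. The ribosomal median minus the cardiomyocyte marker median lay between -0.048 and 0.070 on sham arrays. On infarcted arrays it was -0.015 on replicate 2 and between -0.320 and -0.160 on the other 5.

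Most fibroblast, macrophage and monocyte, and smooth muscle and pericyte markers moved the other way. The mean log2 signal over 10 fibroblast markers ran from 9.15 to 9.41 in sham and from 10.44 to 10.86 in infarcted tissue, and that over 10 macrophage and monocyte markers from 7.71 to 8.09 and from 8.28 to 8.58. Of 7 smooth muscle and pericyte markers 5 rose, and of 8 endothelial markers none passed. Atrial markers ran from 6.80 to 7.33 and from 7.13 to 8.77, and 2 of 6 rose. The 2 were Nppa (2.04, adjusted p = 2.78e-09 in limma) and Nr2f2 (0.46, adjusted p = 0.00325), while Sln, Myl4, Myl7 and Bmp10 did not pass. Nppa and Nr2f2 were even among infarcted arrays (SD 0.07 and 0.10), as was Bmp10 (0.22). Sln, Myl4 and Myl7 were not (SD 0.98, 1.37 and 1.6), so the 2 rises do not show atrial tissue in every infarcted sample. None of 6 adipocyte markers passed (5.16 to 5.51 and 5.13 to 7.48), and of 3 red blood cell markers 1 fell. The atrial marker Bmp10 and the adipocyte marker Adipoq were near background in sham hearts (3.63 each). The part of the change in cell makeup in the fall of ribosomal genes was not tested.

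**Figure D5:**
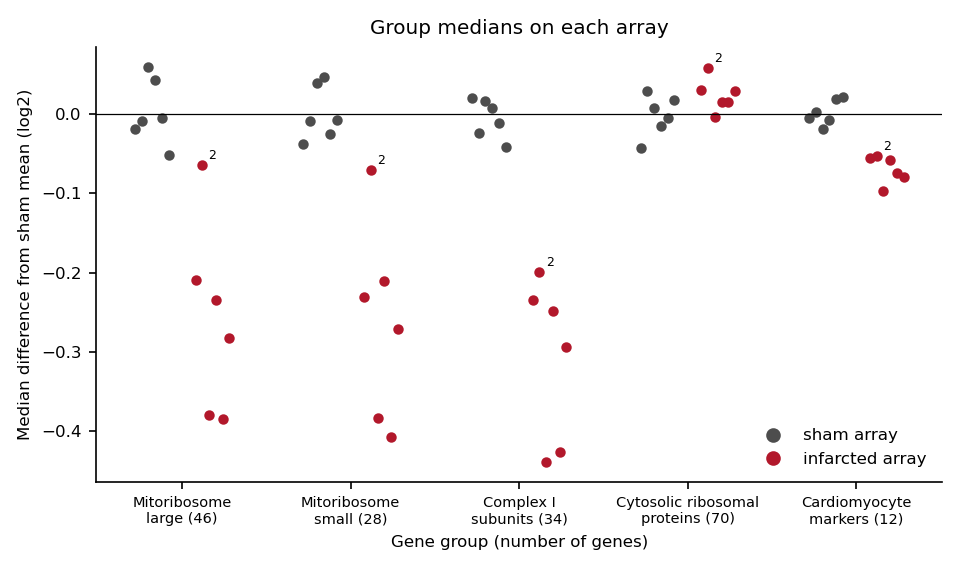
For 5 groups of genes, each point is the median over the group's genes of the difference from the sham mean (log2) on 1 array, grey for sham and red for infarcted, with infarcted replicate 2 marked. Infarcted arrays lie below all sham arrays for both ribosomal subunits, complex I and, by a small margin, the cardiomyocyte markers, and among the sham arrays or above them for cytosolic ribosomal proteins.

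The promoters of these genes were searched for short motifs tied to nuclear control of mitochondrial genes. RefSeq promoters (GRCm38.p6, 250 bases before to 50 after the annotated start) were at hand for 65 of the 74 genes and for 15761 genes of the array. Each motif was counted on both strands, and motifs were allowed to overlap. The CCGGAAG motif of GABPA, an ETS factor also called nuclear respiratory factor 2, was present in 24 of the 65 genes (36.9%), against 13.7% of all genes and 4 of 31 complex I genes. The consensus motif of nuclear respiratory factor 1 was present in 12 (18.5%), against 7.82% of all genes and 7 of 31 complex I genes. AAGATGG, a YY1 motif, was present in 12 (18.5%, against 7.35% of all genes), and CAAGGTCA, bound by oestrogen-related receptors, in 2 (3.08%, against 1.41%). Genes that fell and genes that did not pass had the GABPA motif in 9 of 27 and 15 of 38, and the nuclear respiratory factor 1 motif in 7 of 27 and 5 of 38. These are matches of letters, not binding sites, and promoters of other gene classes differ in base composition.

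The 150 bases just before the annotated start are shown for 5 genes described above because they differ in these motifs and in their call, 4 that fell and Mrps18c, which did not pass. Capitals mark a whole match to one of the 4 motifs, the nuclear respiratory factor 1 motif in Mrpl9 and, on the reverse strand, in Mrpl12, and the GABPA motif in Mrps18a. Mrpl50 and Mrps18c have no match in these bases, but the longer window used for the counts holds the GABPA motif farther upstream in Mrps18c. It also holds the YY1 motif after the start in Mrps18a. The windows are chr3:94443186-94443335 (plus strand), chr11:120484487-120484636 (plus), chr17:46110854-46111003 (plus), chr4:49521084-49521233 (minus) and chr5:100798609-100798758 (plus), in the order shown.
Mrpl9: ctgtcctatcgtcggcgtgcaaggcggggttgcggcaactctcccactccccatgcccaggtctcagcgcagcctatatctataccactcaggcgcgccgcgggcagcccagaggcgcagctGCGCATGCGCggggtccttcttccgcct
Mrpl12: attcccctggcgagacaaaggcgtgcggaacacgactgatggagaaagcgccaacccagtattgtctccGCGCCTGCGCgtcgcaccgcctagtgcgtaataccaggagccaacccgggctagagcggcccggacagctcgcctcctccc
Mrps18a: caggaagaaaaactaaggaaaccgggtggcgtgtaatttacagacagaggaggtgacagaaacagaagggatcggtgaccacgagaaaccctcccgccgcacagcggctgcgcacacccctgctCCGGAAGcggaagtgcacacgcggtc
Mrpl50: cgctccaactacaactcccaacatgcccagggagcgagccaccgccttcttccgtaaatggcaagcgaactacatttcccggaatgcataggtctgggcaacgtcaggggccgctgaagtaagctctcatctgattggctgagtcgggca
Mrps18c: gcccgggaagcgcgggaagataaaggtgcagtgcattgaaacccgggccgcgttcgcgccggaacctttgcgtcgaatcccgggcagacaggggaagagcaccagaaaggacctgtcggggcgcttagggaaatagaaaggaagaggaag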

How the data were processed

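The authors' deposited table holds log2 signals of 241576 rows (probesets) for 12 arrays. Affymetrix Power Tools is named in the submitters' processing notes; its version is not named there, and how rows were summarised, background-corrected and normalized is not given in the sources used here. No source names the log base, and log2 was read from the range of the deposited values (1.52 to 14.37).

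Rows with exactly 1 platform symbol (212097) were kept, 4475 with several and 25004 with none were not. Symbols were updated through RefSeq synonyms, members kept their platform symbol, and the gene value was the median over its rows. A total of 13 rows that name an Mrpl or Mrps symbol beside another gene were not used for the members. The fit covered all 20352 genes and used limma (version 3.58.1, under R 4.3.3) with lmFit followed by eBayes and no block. Tests were two-sided, p-values were adjusted by Benjamini-Hochberg across the 20352 genes, and 0.05 was the threshold. The same fit was made on all rows. The scripts were tested on simulated data. Members and gene lists were chosen with earlier results of these data known, and lists were described by counts and medians, with no set test.

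Members described with full statistics were, in each subunit, the 5 that fell with the smallest p, any 3 that rose, the brightest, the dimmest and the closest to passing, plus Mrps18a, Mrps18b, Mrps18c, Mrps30, Mrpl12, Mrpl44 and Mrpl3. From the other lists up to 3 genes that passed with the smallest p are named. The labels do not say whether each sample is a separate animal, so p-values measure the spread between these samples. Hybridisation dates and batches are not among the labels. Alternatives were the mean over rows, dim rows left out (below the 30th percentile), centred or quantile-normalized arrays, a trend with robust eBayes, a replicate block, current symbols, another placing of Mrps18a and Mrps30, and each array left out.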

Additional observations from a re-analysis of the deposited data

Results flagged for a closer look

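In 8 of the 152 groups of 6 arrays examined, 1 array stood apart from the other 5 by Dixon's test, and chance flags about 5% of such groups. Infarcted replicate 2 was high in Mrpl11 (8.33, the others 7.90 to 8.05), Mrpl45 (8.75, the others 8.20 to 8.36) and Mrps28 (7.78, the others 7.45 to 7.56). Infarcted replicate 5 was low in Mrpl21 (8.32, the others 8.56 to 8.66) and Mrps10 (6.78, the others 7.12 to 7.31). Sham replicate 2 was low in Mrpl44 (7.53, the others 7.77 to 7.88) and high in Mrps17 (8.10, the others 7.74 to 7.86), and sham replicate 5 was low in Mrpl36 (7.58, the others 7.97 to 8.08).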

How the results depend on the processing

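No gene of either subunit rose in any of the settings tried, and the medians stayed below 0 in all of them (large subunit -0.273 to -0.214, small subunit -0.300 to -0.212). The count of large subunit genes that fell ranged from 13 to 26 with 1 array left out, and that of small subunit genes from 9 to 16. In the other settings, with all arrays kept, the counts ranged from 15 to 29 and from 11 to 16, while the share of all genes that fell ranged from 9.12% (replicate block) to 14.5% (mean over rows, and arrays centred). With infarcted replicates 4 and 5 left out, a setting chosen after seeing the data, they were 11 and 7, and 7.15% of all genes fell against 10.2% with all arrays. The cause was not tested. The replicate block, with replicate number as a term, gave 15 and 12 genes, and Mrpl12 (adjusted p = 0.0524 in limma), Mrpl3 (0.0649) and Mrpl44 (0.0719) no longer passed. No label ties same-numbered arrays together, their deviations from the group means correlated between -0.051 and 0.101, and only replicates 1 and 4 correlated best with their own number, so the numbers were not taken as pairs. Mrpl33 changed sign with the mean over rows (0.01), with dim rows left out (0.10) and among the fits with 1 array left out (-0.11 to 0.03), and Mrps18c among the latter (-0.09 to 0.01). Neither gene passed in any of these, and the cause was not tested. Of the 32 genes that fell, 22 did so in each of the 12 fits with 1 array left out, and 16 in those and in all other settings. Signal over background limits the dimmest genes.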

Other observations

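Rows that the annotation gives to a mitochondrial ribosomal protein gene together with another gene were kept out of the counts. The single row for Mrps6 is shared with Slc5a3, a myo-inositol transporter gene that overlaps it, and had a signal of 8.75 ± 0.20 in sham and 8.59 ± 0.20 in infarcted tissue (SD, n = 6 arrays per group), a difference of -0.16 that did not pass (limma, adjusted p = 0.484 over all rows). A row shared by Mrpl12 and Gm15770 differed by -0.27 (adjusted p = 0.109), beside a fall of 0.33 for Mrpl12 from its own rows. The 6 rows shared by Mrpl53 and Ccdc142 differed by -0.31 to 0.46 and none passed.

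Choosing genes by their current symbol added Mrpl42 (-0.17, adjusted p = 0.171 in limma), Mrpl57 (-0.22, adjusted p = 0.166) and Mrpl58 (-0.27, adjusted p = 0.077). Each was below 0 and none passed, so the count of large subunit genes that fell was 20 of 49.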
